A study of Homo sapiens with 24 samples.

Results

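The proteasome subunits examined here are 41 human genes chosen by their symbols, the core, base, lid and activator subunits named PSMA, PSMB, PSMC, PSMD and PSME. Of these, 40 were matched by gene identifier among the 51715 genes with counts, and PSMB3, a subunit of the beta ring, is not analysed here because its current identifier was not among those of the files. The data are poly(A)-selected RNA sequencing of U-2 OS (an osteosarcoma line), U-251MG (a glioblastoma line) and A-431 (an epidermoid carcinoma line), none of them treated. For each line, 4 libraries were labelled total RNA, extracted from whole cells, and 4 were labelled cytoplasmic RNA, extracted after a lysis that leaves nuclei behind. By the study's methods the libraries of a group are biological replicates, each grown as its own culture, so a p-value here reflects the scatter among cultures of a single established line.

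The proteasome is the protease that degrades ubiquitin-tagged proteins in the cytosol and nucleus. Its core particle is a barrel of alpha and beta rings, of which PSMB5, PSMB6 and PSMB7 carry the catalytic sites, and interferon-inducible PSMB8, PSMB9 and PSMB10 take their places in the immunoproteasome. The regulatory particle has a base of ATPases that unfold substrates and a lid that removes ubiquitin, and the PSME proteins form other caps on the core.

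A total of 19918911 to 32394170 reads per library were counted in genes. Values are given as CPM, the reads of a gene after each library is brought to one common total, with library sizes scaled by TMM over all libraries, as the mean ± SD over libraries. Library 13, labelled U-2 OS cytoplasmic RNA, matched no row of the study's table of read totals and held the largest share of reads outside genes, 21.5% against 13.9% to 17.8% in the other 23 libraries. It was left out of the tests, so that group has n = 3. Of the 40 subunits, 31 lay below the range of the other 3 U-2 OS cytoplasmic libraries in library 13, 8 within it and 1 above it. The same count was not made over all genes, so it describes the library and not a trait of the subunits. The lines carried their markers, with EGFR at 16426 CPM in A-431 total RNA against 36.5 for U-2 OS and 241 for U-251MG, COL1A1 at 1198 CPM in U-2 OS and FABP7 at 67.1 in U-251MG, while the glial marker GFAP was at only 2.62 CPM in U-251MG total RNA. MALAT1 and NEAT1, both nuclear RNAs, were lower in the libraries labelled total than in those labelled cytoplasmic, which goes against the labels of the fractions. For MALAT1 the log2 ratio was -0.82 for U-2 OS, -1.36 for U-251MG and -1.42 for A-431 (edgeR, adjusted p = 3.64e-05, 9.41e-05 and 0.00547). For NEAT1 it was -0.54, -1.35 and -1.68 in that order (adjusted p = 0.0843, 0.0128 and 7.65e-04). The study's own check ran with the labels, as its electrophoresis showed a peak of nuclear RNA in the total extractions and not in the cytoplasmic ones it kept. A U-2 OS cytoplasmic replicate that showed the peak was discarded by the study, and no source used here says whether it is library 13. The fractions are named by their labels throughout.

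Per length, the subunits other than PSMC1 ran from PSMB9 at the low end to PSMA7 at the high end in U-2 OS. Levels between genes were compared as CPM per kilobase of the reference transcript. The median over the 40 subunits was 57.7 CPM per kb in U-2 OS total RNA, 76.2 in U-251MG and 65.9 in A-431. PSMA7, an alpha ring subunit, was the highest in U-2 OS at 274 ± 6.33 CPM per kb (n = 4). PSMD2, a large scaffold subunit of the base, was the highest in U-251MG at 308 ± 34.9 and in A-431 at 278 ± 24.5, against 147 ± 6.28 in U-2 OS. Within the alpha ring PSMA5 was the lowest in U-2 OS, at 28.5 ± 0.897 CPM per kb. Which alpha subunit was lowest depended on the length, since per kb of all annotated exons it was PSMA6 at 9.72 ± 0.273, with PSMA5 at 18.97 ± 0.597 and PSMA7 still the highest at 151 ± 3.48.

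The inducible PSMB9 and PSMB10 were the lowest subunits after PSMC1 in U-2 OS. There PSMB9 was at 5.80 ± 0.500 and PSMB10 at 6.18 ± 0.722 CPM per kb, which did not differ beyond their spread, followed by PSMD9, a chaperone of base assembly, at 8.02 ± 0.516. In A-431 PSMB9 was at 31.2 ± 0.886 CPM per kb, above PSME4 at 29.6 ± 1.30 by less than the sum of both SDs. PSMB8 in A-431, at 54.6 ± 2.27, lay above its constitutive counterpart PSMB5 at 37.02 ± 3.94. These orders depend on the transcript chosen, and the RPKM values the authors deposited gave 4.32 to 45.9 times the CPM per kb of the same subunit in library 1 over the 39 subunits with at least 100 counts, so they were not used to order genes.

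**Figure D1:**
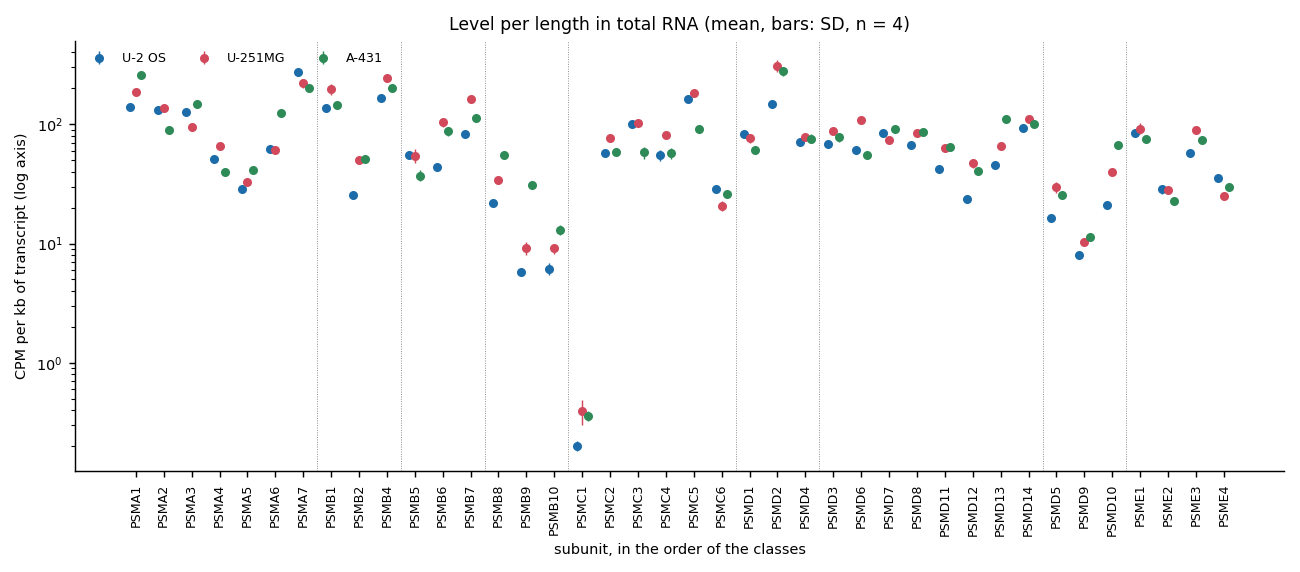
Level of each subunit in total RNA as CPM per kb of the reference transcript on a log axis, mean and SD over 4 libraries of each cell line, with dotted lines between classes. PSMB9 and PSMB10 lie at the bottom of the well-counted subunits in U-2 OS and U-251MG, and PSMC1 lies far below all others.

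PSMC1, one of the 6 ATPases of the base, was counted at only 0.883 ± 0.0860 CPM in U-2 OS total RNA, 1.74 ± 0.412 in U-251MG and 1.57 ± 0.153 in A-431, which is 19 to 52 reads per library. Its exons on chr14:90722871-90741773 (GRCh37) overlap exons of NRDE2 on the opposite strand over 83.2% of the bases of its reference transcript, and 28.5% of the 100-base windows of that transcript match a processed copy with at most 2 mismatches. The copy PSMC1P1 was counted at 72.1 ± 2.05 CPM in U-2 OS total RNA, 124.9 ± 7.46 in U-251MG and 101 ± 3.32 in A-431. By mean level PSMC1 and its copy were thus ordered alike, highest in U-251MG and lowest in U-2 OS. For PSMC1 the libraries of U-251MG and A-431 overlapped, and the value of PSMC1 itself is uncertain.

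Between cell lines the share of subunits called lay near that of all genes, and their ratios were smaller. In total RNA, 27 of 40 subunits differed between A-431 and U-2 OS at an adjusted p under 0.001 (67.5%), against 65.6% of the 18610 genes tested. Between A-431 and U-251MG 25 of 40 did (62.5%), against 57.8% of genes, and between U-251MG and U-2 OS 28 of 40 (70%), against 62.5%. With a fold of at least 2 as a second condition, 5 of 40 (against 38.8% of genes), 2 of 40 (against 31.0%) and 2 of 40 (against 35.7%) passed. The median size of the log2 ratio was 0.48, 0.32 and 0.46 for the subunits and 0.77, 0.65 and 0.72 for all genes tested, and among those whose mean log2 CPM was 5 or more it was 0.48 against 0.53, 0.33 against 0.47 and 0.46 against 0.51. The 3 comparisons share libraries and are not independent of each other. In bulk RNA, fewer cells with a transcript and less of it per cell cannot be told apart.

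U-251MG held more of most subunits than U-2 OS. In total RNA 23 of 40 were higher in U-251MG (57.5%, against 28.3% of genes) and 5 were lower (12.5%, against 34.2%), with a median log2 ratio of 0.34 over the subunits and -0.09 over all genes tested. In A-431 against U-2 OS 18 were higher and 9 lower, against 30.8% and 34.8% of genes, with medians of 0.20 and -0.07. In A-431 against U-251MG 11 were higher and 14 lower, against 29.3% and 28.5% of genes, with medians of -0.15 and 0. Among genes with a mean log2 CPM of 5 or more the count was taken at an unadjusted p under 0.05. There 22 of 35 subunits were higher and 6 lower in U-251MG than in U-2 OS, against 3199 and 2414 of 6743 genes. In A-431 against U-2 OS it was 18 and 11, against 3149 and 2517, and against U-251MG 10 and 20, against 2667 and 2875. No difference of the subunits from genes of like level was tested. By mean level U-251MG was the highest line for 20 of the 40 subunits, A-431 for 14 and U-2 OS for 6, and U-2 OS was the lowest line for 25. The median fold between the highest and the lowest line was 1.54. Neither this fold nor the order of line means was computed over all genes.

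**Figure D2:**
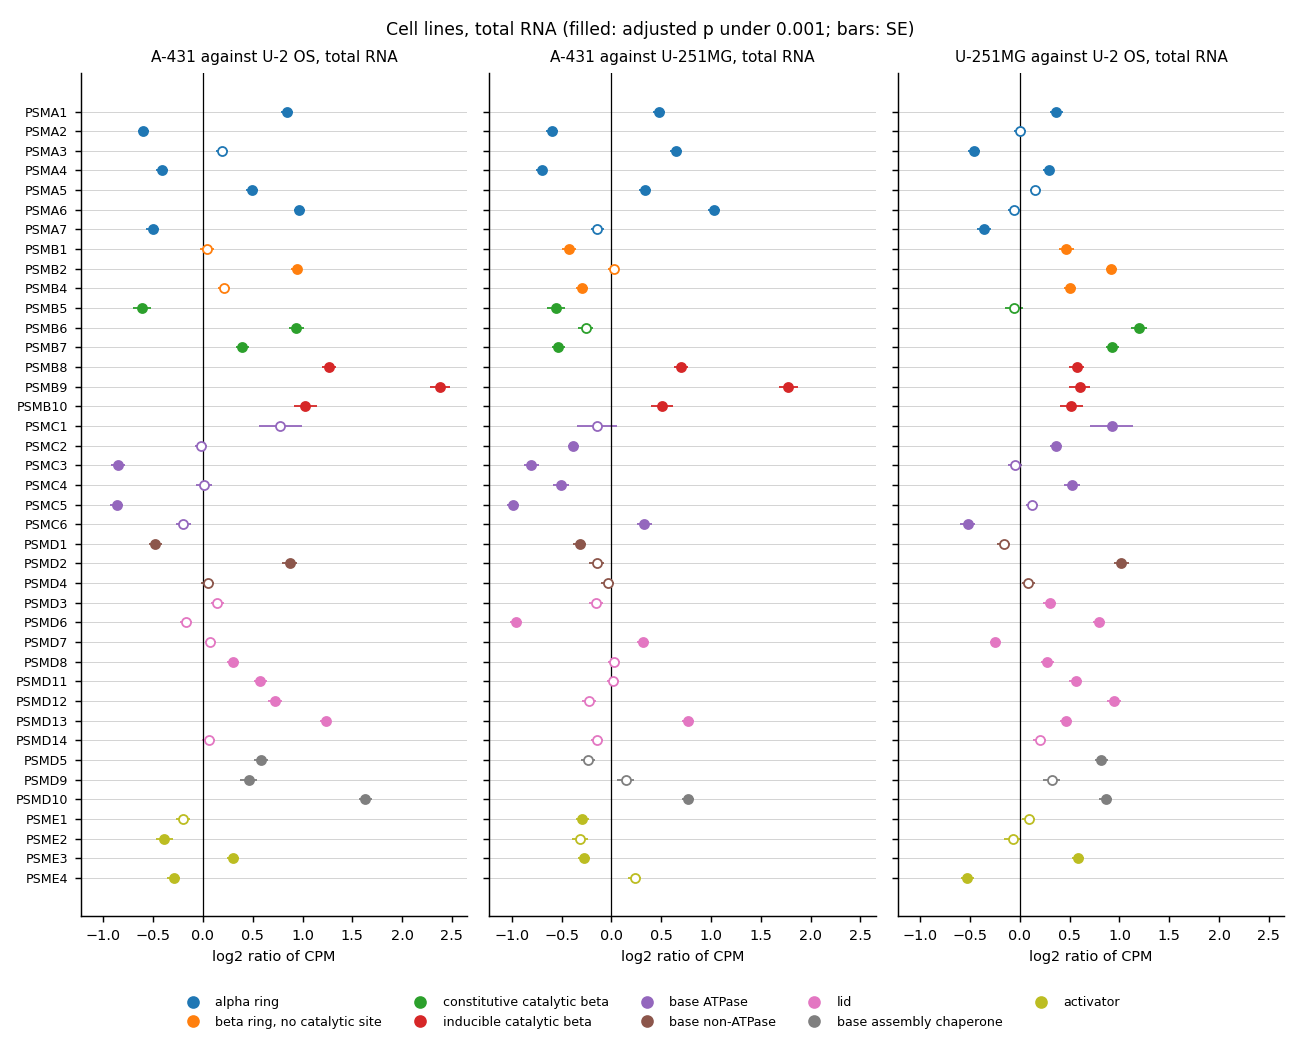
Log2 ratio of each of the 40 subunits between cell lines in total RNA, coloured by class, with SE bars and filled points where the adjusted p is under 0.001. PSMB9 in A-431 against U-2 OS is farthest from 0, at 2.38, and most points lie within 1 of 0.

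The 3 inducible catalytic subunits were all highest in A-431 in total RNA, with the largest median ratio of any class in A-431 against either other line. PSMB9 was counted at 32.9, 31.3, 31.9 and 30.8 CPM in the A-431 libraries, against 9.04, 9.33, 10.9 and 7.94 CPM for U-251MG and 5.54, 5.76, 5.64 and 6.65 CPM for U-2 OS. PSMB9 (chr6:32811913-32827628, GRCh37, plus strand) is the inducible counterpart of the caspase-like PSMB6, and its libraries did not overlap between any of the lines. Its log2 ratio was 2.38 ± 0.10 (SE) in A-431 against U-2 OS (adjusted p = 3.08e-17), 1.78 ± 0.10 against U-251MG (adjusted p = 8.07e-15) and 0.60 ± 0.11 in U-251MG against U-2 OS (adjusted p = 1.45e-05).

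PSMB8 was counted at 63.3, 63.4, 57.97 and 60.99 CPM in the A-431 libraries, against 36.4, 42.1, 35.9 and 37.3 CPM for U-251MG and 24.3, 23.3, 25.99 and 25.3 CPM for U-2 OS. PSMB8 (chr6:32808494-32812456, minus strand), the inducible counterpart of the chymotrypsin-like PSMB5, was again separate in all 3 lines, with a log2 ratio of 1.27 ± 0.07 in A-431 against U-2 OS, 0.70 ± 0.07 against U-251MG and 0.57 ± 0.07 in U-251MG against U-2 OS. PSMB10 was counted at 13.6, 12.7, 11.1 and 13.5 CPM in the A-431 libraries, against 8.62, 9.94, 9.15 and 7.91 CPM for U-251MG and 6.87, 5.59, 6.35 and 5.32 CPM for U-2 OS. PSMB10 (chr16:67968409-67970767, minus strand), the counterpart of the trypsin-like PSMB7, had the same order of lines without overlap, with a log2 ratio of 1.03 ± 0.11, 0.51 ± 0.11 and 0.52 ± 0.12 in the same 3 comparisons. The largest adjusted p of the 3 genes in these comparisons was 2.63e-04. Leaving out 1 library lost the PSMB10 call in 4 of 8 fits in A-431 against U-251MG and in 3 of 8 in U-251MG against U-2 OS. A same-strand locus of the newer annotation overlaps 56.1% of the bases of the PSMB10 reference transcript. That locus is not among the genes with counts, so no reads were assigned to it. Whether reads from it were counted in PSMB10 was not tested.

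In the libraries labelled cytoplasmic the order of the lines was the same for all 3. PSMB9 was counted at 33.98, 34.2, 35.6 and 40.8 CPM in the A-431 libraries, against 11, 12.4, 8.67 and 10.5 CPM for U-251MG and 7.22, 6.71 and 6.85 CPM for U-2 OS. PSMB8 was counted at 69.3, 70.2, 67.9 and 85.01 CPM in the A-431 libraries, against 41.1, 46.8, 46.2 and 48.7 CPM for U-251MG and 29.6, 29.6 and 27.4 CPM for U-2 OS. PSMB10 was counted at 15.6, 16.4, 14.99 and 24.7 CPM in the A-431 libraries, against 15.3, 16.6, 14.3 and 15.3 CPM for U-251MG and 9.06, 9.07 and 7.12 CPM for U-2 OS. A-431 library 24 was the highest of its group for each of them, at 40.8, 85.0 and 24.7 CPM, and for PSMB10 the other A-431 libraries overlapped those of U-251MG. The log2 ratio of A-431 against U-2 OS was 2.36 ± 0.11 for PSMB9, 1.32 ± 0.08 for PSMB8 and 1.07 ± 0.15 for PSMB10, with adjusted p of 4.41e-14, 7.81e-12 and 6.28e-06. Against U-251MG it was 1.75 ± 0.09 and 0.66 ± 0.07 for the first pair, and 0.20 ± 0.13 for PSMB10, which did not pass (adjusted p = 0.184).

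**Figure D3:**
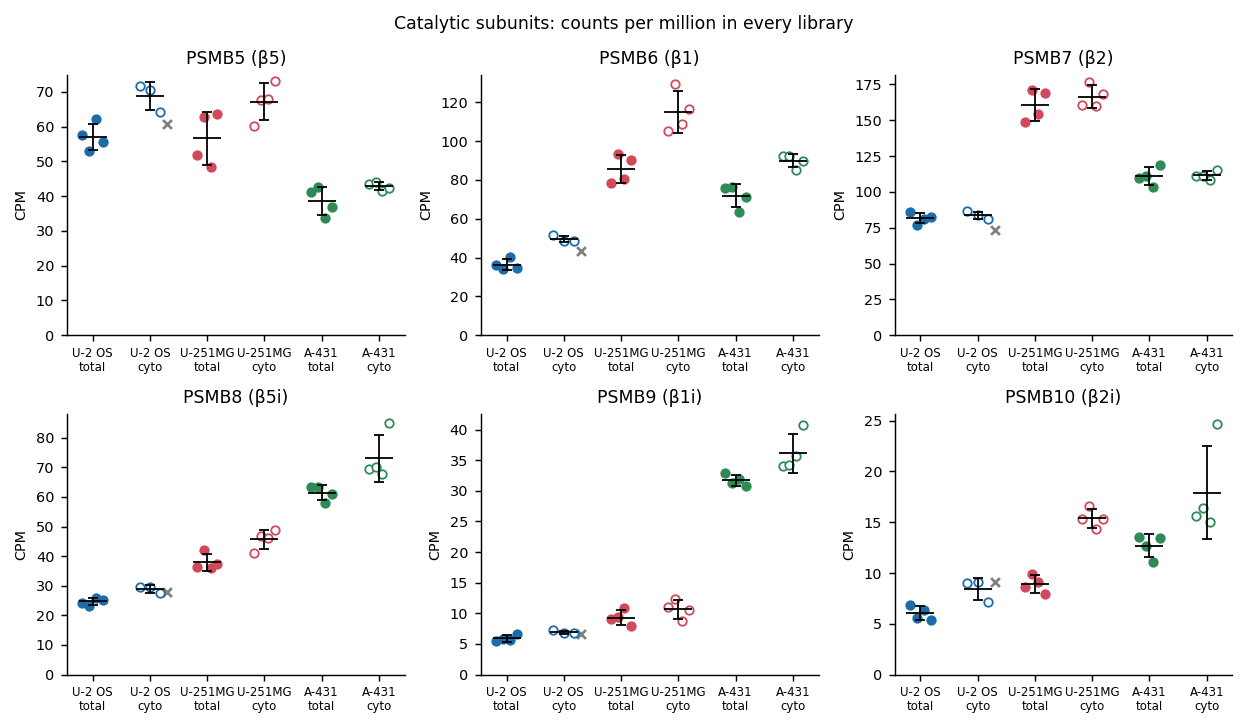
CPM of the 3 constitutive (upper row) and 3 inducible (lower row) catalytic subunits in each library, filled points for total and open points for cytoplasmic RNA, with mean and SD in black and the left-out library 13 as a grey cross. PSMB9 is at 30.8 to 32.9 CPM in A-431 total RNA and at 5.54 to 6.65 in U-2 OS, whereas PSMB5 is lowest in A-431.

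The constitutive catalytic subunits did not move as a class. PSMB6 was counted at 76, 76.1, 63.5 and 71.4 CPM in the A-431 libraries, against 78.5, 93.4, 80.7 and 90.3 CPM for U-251MG and 36.2, 33.9, 40.2 and 34.6 CPM for U-2 OS. PSMB6 (chr17:4699439-4701797, plus strand), with caspase-like activity, was lowest in U-2 OS and highest in U-251MG with no overlap between lines, and its log2 ratio in U-251MG against U-2 OS was 1.20 ± 0.08 (adjusted p = 3.04e-13), the largest of any subunit in that comparison. PSMB7 was counted at 109.8, 111, 103 and 119 CPM in the A-431 libraries, against 149, 171, 154 and 169 CPM for U-251MG and 85.9, 76.99, 81.2 and 82.7 CPM for U-2 OS. PSMB7 (chr9:127115744-127177723, minus strand), with trypsin-like activity, had the same order of lines without overlap, with log2 ratios of 0.93 ± 0.06 in U-251MG and 0.39 ± 0.06 in A-431 against U-2 OS. PSMB5 was counted at 41.2, 42.8, 33.7 and 36.9 CPM in the A-431 libraries, against 51.9, 62.7, 48.4 and 63.6 CPM for U-251MG and 57.5, 53.1, 62.1 and 55.5 CPM for U-2 OS. PSMB5 (chr14:23485752-23504439, minus strand), the chymotrypsin-like subunit and the main target of proteasome inhibitors, was lowest in A-431, by a log2 ratio of -0.61 ± 0.09 against U-2 OS and -0.55 ± 0.09 against U-251MG, while U-2 OS and U-251MG overlapped and did not pass (-0.06 ± 0.09, adjusted p = 0.573).

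Set per length against the subunit it replaces, each inducible subunit made up the largest share in A-431. PSMB8 was 28.7% ± 0.793 (SD, n = 4) of PSMB8 and PSMB5 together in U-2 OS total RNA, 38.5% ± 2.36 in U-251MG and 59.7% ± 1.61 in A-431. PSMB9 was 26.5% ± 1.71 of PSMB9 and PSMB6 in A-431, against 8.13% ± 1.39 for U-251MG and 11.7% ± 1.42 for U-2 OS. PSMB10 was 10.3% ± 0.542 of PSMB10 and PSMB7 in A-431, against 5.30% ± 0.540 for U-251MG and 6.92% ± 0.614 for U-2 OS. In U-251MG the shares of PSMB9 and PSMB10 were thus below those in U-2 OS, although both genes were higher there, and the ratios of PSMB6 and PSMB7 between these lines were larger than theirs. The level of these shares depends on the length used, since the union of all annotated exons in place of one transcript gave 41.5% ± 1.63 for PSMB8 and 16.2% ± 1.20 for PSMB9 in A-431. Another length cannot reorder the libraries, since 1 length per gene is applied to all of them. By RPKM the order of the line means was the same for PSMB8 and PSMB9 in total RNA.

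In the libraries labelled cytoplasmic the share of PSMB8 was 28.04% ± 0.320 in U-2 OS (n = 3), 38.7% ± 0.349 in U-251MG and 61.2% ± 2.62 in A-431, within 2 percentage points of total RNA in each line. That of PSMB9 was 10.2% ± 0.113, 6.97% ± 0.734 and 24.6% ± 1.89. That of PSMB10 was 9.19% ± 0.915, 8.52% ± 0.224 and 13.8% ± 2.63, and here U-2 OS and U-251MG differed by less than their spread.

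The promoters of the inducible subunits and of PSME1 and PSME2, the subunits best known as interferon targets, were read from RefSeq (GRCh38.p14). A table of 35116 start sites, each with 250 bases before and 50 after, held 36 of the 41 genes with 43 starts, and PSMA7, PSMB1, PSMB6, PSMB7 and PSMD4 had no entry. The letters GAAANNGAAA, as found in interferon-stimulated response elements, occurred on either strand in 6 of these 43 windows (14%), those of PSMA4, PSMB10, PSMB4, PSMB8, PSME1 and PSME2, against 3.57% of all windows. The letters TGACNNNGC, as in antioxidant response elements, occurred in 13 of 43 (30.2%), against 13.3% of all windows, and CCAAT in 18 of 43 (41.9%), against 34.6%. Below, 180 bases before and 15 after the start are shown 5′ to 3′ along the gene for these 5 genes, to let the sequences be set beside their levels, with GAAANNGAAA or TGACNNNGC on either strand in capitals. They are PSMB8 at chr6:32844033-32844227 on the minus strand, PSMB9 at chr6:32854012-32854206 on the plus strand, PSMB10 at chr16:67936836-67937030 on the minus strand, PSME1 at chr14:24136014-24136208 on the plus strand and PSME2 at chr14:24146596-24146790 on the minus strand.
PSMB8: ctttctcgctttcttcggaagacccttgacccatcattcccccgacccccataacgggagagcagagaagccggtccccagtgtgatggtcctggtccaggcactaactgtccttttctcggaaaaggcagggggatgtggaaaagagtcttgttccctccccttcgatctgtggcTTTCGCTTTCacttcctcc
PSMB9: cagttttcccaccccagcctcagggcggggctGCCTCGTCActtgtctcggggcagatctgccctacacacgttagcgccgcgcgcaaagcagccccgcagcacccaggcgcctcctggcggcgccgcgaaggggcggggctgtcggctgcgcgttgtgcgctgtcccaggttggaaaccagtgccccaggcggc
PSMB10: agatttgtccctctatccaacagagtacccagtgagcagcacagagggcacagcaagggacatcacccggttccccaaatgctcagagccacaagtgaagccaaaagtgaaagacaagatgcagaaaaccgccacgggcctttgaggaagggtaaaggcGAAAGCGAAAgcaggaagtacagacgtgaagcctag
PSME1: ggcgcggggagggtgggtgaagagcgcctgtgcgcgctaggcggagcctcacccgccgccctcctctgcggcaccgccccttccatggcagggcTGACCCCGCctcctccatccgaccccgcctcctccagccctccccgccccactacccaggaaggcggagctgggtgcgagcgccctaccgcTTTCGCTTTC
PSME2: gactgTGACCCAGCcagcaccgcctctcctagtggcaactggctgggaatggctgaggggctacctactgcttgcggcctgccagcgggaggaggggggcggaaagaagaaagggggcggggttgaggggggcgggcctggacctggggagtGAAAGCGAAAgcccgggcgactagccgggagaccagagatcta

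The GAAANNGAAA match began 21 bases before the start in PSMB10, 28 before it in PSME2 and 4 before it in PSMB8, where the other annotated start had none, and 5 bases after the start in PSME1. PSMB9, the subunit with the largest ratio between lines, had no such match in this window. Its start lies 488 bases from the nearest start of TAP1, which is transcribed the other way. The genes with these letters did not share one pattern, since PSMB8 and PSMB10 were highest in A-431 and PSME1 and PSME2 were lowest there.

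PSME1 and PSME2 form the PA28 cap, which binds the end of the core in place of the regulatory particle and is induced by interferon. PSME1 was counted at 73.6, 68.4, 74.2 and 73.2 CPM in the A-431 libraries, against 81.5, 91.2, 101 and 80.9 CPM for U-251MG and 78.2, 80.7, 82.7 and 80.7 CPM for U-2 OS. PSME2 was counted at 18.6, 17.6, 17.5 and 17.8 CPM in the A-431 libraries, against 22.3, 21.1, 24.6 and 21.02 CPM for U-251MG and 20.6, 23.99, 24.4 and 21.5 CPM for U-2 OS. In A-431 both were below every U-2 OS and U-251MG library, by little. PSME1 had a log2 ratio of -0.20 ± 0.07 against U-2 OS (adjusted p = 0.00859, not called) and -0.29 ± 0.07 against U-251MG (adjusted p = 4.23e-04). PSME2 had -0.39 ± 0.08 (adjusted p = 1.86e-04) and -0.31 ± 0.08 (adjusted p = 0.00181, not called). PSME2 shares 30.8% of its 100-base windows with processed copies, of which PSME2P1 was counted at 18.01 to 23.2 CPM and PSME2P2 at 20.4 to 25.8 CPM as means of the lines in total RNA, each about as high as PSME2 itself at 17.9 ± 0.502 CPM in A-431, so its level is uncertain.

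The other caps went in other directions. PSME3, the nuclear cap PA28 gamma, was at 184 ± 5.20 CPM in U-2 OS total RNA, 284 ± 16.8 in U-251MG and 235 ± 9.81 in A-431, higher in U-251MG than in U-2 OS by a log2 ratio of 0.58 ± 0.06. PSME4 was counted at 215, 216, 203 and 226 CPM in the A-431 libraries, against 178, 178, 173 and 203 CPM for U-251MG and 277, 248, 248 and 247 CPM for U-2 OS. PSME4, known as PA200 and for its part in histone degradation, was highest in U-2 OS without overlap, with log2 ratios of -0.53 ± 0.06 in U-251MG and -0.29 ± 0.06 in A-431 against it, while U-251MG and A-431 overlapped.

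Among the alpha ring subunits, which gate the core, 4 of 7 were higher and 2 lower in A-431 than in U-251MG, and 3 were higher and 3 lower than in U-2 OS. PSMA6 was counted at 126, 126, 128 and 132 CPM in the A-431 libraries, against 61.5, 60.99, 62.8 and 65.4 CPM for U-251MG and 60.9, 63.1, 65.2 and 63.7 CPM for U-2 OS. PSMA6 was higher in A-431 than in either other line, with log2 ratios of 0.97 ± 0.06 against U-2 OS and 1.03 ± 0.06 against U-251MG (adjusted p = 1.40e-14), and U-2 OS and U-251MG overlapped. Of its 100-base windows 42.9% match a processed copy with at most 2 mismatches. PSMA4 was counted at 177, 168, 178 and 178 CPM in the A-431 libraries, against 289.8, 275, 287 and 289 CPM for U-251MG and 230.4, 228, 213 and 231 CPM for U-2 OS. PSMA4 was lowest in A-431 without overlap (-0.70 ± 0.06 against U-251MG).

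PSMA2 was lower in A-431 as well, at 131, 123, 129.8 and 132 CPM against 182, 192, 186 and 194 in U-2 OS and 182, 201, 192 and 205 in U-251MG. Its log2 ratio was -0.60 ± 0.06 against U-2 OS and -0.60 ± 0.06 against U-251MG. PSMA3, at 83.8, 88.1, 89.1 and 99.1 CPM in U-251MG, was below both U-2 OS (122, 115, 119.8 and 121) and A-431 (136, 138, 143 and 148), and PSMA7 was highest in U-2 OS, at 266, 270.1, 265 and 256 CPM against 212, 228, 224 and 187 for U-251MG and 189, 203, 175 and 203 for A-431. PSMA1 and PSMA5 were both highest in A-431 and lowest in U-2 OS without overlap, at 309 ± 3.56 against 167 ± 5.30 CPM and 158 ± 7.33 against 109 ± 3.42 CPM. Subunits of one ring, present in equal copies in the particle, thus differed between the same lines in opposite directions. Same-strand loci of the newer annotation, without counts of their own, overlap 100% of the bases of the PSMA2 reference transcript, 81.4% for PSMA6 and 67.0% for PSMA1. Their part in these values was not tested.

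Of the beta subunits without a catalytic site, all 3 measured were higher in U-251MG than in U-2 OS. PSMB2 was counted at 223, 231, 220.5 and 227 CPM in the A-431 libraries, against 224, 227, 216 and 221 CPM for U-251MG and 118, 115, 108 and 114 CPM for U-2 OS. PSMB2 was higher than in U-2 OS by a log2 ratio of 0.92 ± 0.06 in U-251MG and 0.94 ± 0.06 in A-431, which overlapped each other. PSMB1 was counted at 135, 132, 118 and 133 CPM in the A-431 libraries, against 153, 187, 164 and 191 CPM for U-251MG and 117, 117, 134 and 120.0 CPM for U-2 OS. PSMB1 was highest in U-251MG (0.47 ± 0.07 against U-2 OS), and U-2 OS and A-431 overlapped. PSMB4 was at 225 ± 12.3 CPM in U-251MG, 183 ± 8.56 in A-431 and 153 ± 6.71 in U-2 OS.

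The ATPases of the base, which form one ring and unfold the substrate, were lower in A-431 than in U-251MG in 4 of 6 cases and higher in 1. PSMC5 was counted at 114, 128, 113 and 130.2 CPM in the A-431 libraries, against 240.3, 249, 237 and 236 CPM for U-251MG and 224, 208, 204 and 221 CPM for U-2 OS. PSMC3 was counted at 84.2, 100.3, 77.7 and 95.4 CPM in the A-431 libraries, against 156, 165, 154 and 148 CPM for U-251MG and 162, 149, 161 and 152 CPM for U-2 OS. In A-431 every library lay below every library of the other lines for both, with log2 ratios against U-251MG of -0.99 ± 0.06 for PSMC5 (adjusted p = 1.64e-13) and -0.80 ± 0.07 for PSMC3 (adjusted p = 1.75e-10), and against U-2 OS of -0.87 ± 0.06 and -0.85 ± 0.07. PSMC6 was counted at 56.1, 53.3, 60.4 and 54.2 CPM in the A-431 libraries, against 39.8, 46.4, 42.4 and 49.8 CPM for U-251MG and 58.4, 67.3, 62.2 and 61 CPM for U-2 OS. PSMC6 went the other way, lowest in U-251MG without overlap (-0.53 ± 0.07 against U-2 OS and 0.33 ± 0.07 in A-431 against U-251MG). PSMC2 and PSMC4 were highest in U-251MG, at 207 ± 11.1 and 143 ± 10.6 CPM against 159 ± 3.36 and 100.4 ± 10.4 in A-431.

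The base also holds the scaffolds PSMD1 and PSMD2 and the ubiquitin receptor PSMD4. PSMD2 was counted at 791, 891, 721 and 833 CPM in the A-431 libraries, against 860.0, 963, 769.9 and 993 CPM for U-251MG and 450.3, 407, 422 and 432 CPM for U-2 OS. PSMD2 was lowest in U-2 OS without overlap, with a log2 ratio of 1.02 ± 0.08 in U-251MG and 0.87 ± 0.08 in A-431 against it. PSMD1 was counted at 206, 198, 196 and 211 CPM in the A-431 libraries, against 237, 256, 235 and 284 CPM for U-251MG and 279.8, 265, 264 and 286 CPM for U-2 OS. PSMD1, its partner in the particle, was instead lowest in A-431 (-0.48 ± 0.06 against U-2 OS). PSMD4 was at 93.6 ± 4.42 CPM in U-2 OS, 99.9 ± 8.92 for A-431 and 103 ± 4.82 for U-251MG and was called in no pair of lines in total RNA.

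In the lid, 6 of 8 subunits were higher and 1 lower in U-251MG than in U-2 OS. PSMD13 was counted at 177, 177, 169 and 181 CPM in the A-431 libraries, against 103, 108, 98 and 105 CPM for U-251MG and 75.3, 74.4, 69.2 and 71.5 CPM for U-2 OS. PSMD13 was separate in all lines and highest in A-431, with log2 ratios of 1.23 ± 0.06 against U-2 OS (adjusted p = 3.60e-16) and 0.77 ± 0.06 against U-251MG. PSMD6 was counted at 73, 79.6, 76.1 and 73.9 CPM in the A-431 libraries, against 148, 145, 143 and 154 CPM for U-251MG and 81.3, 85.5, 78.5 and 84.8 CPM for U-2 OS. PSMD6 was highest in U-251MG without overlap, and its log2 ratio in A-431 against U-251MG was -0.96 ± 0.06 (adjusted p = 1.24e-13). PSMD12 was counted at 171, 168, 185 and 176 CPM in the A-431 libraries, against 193, 196, 198 and 232 CPM for U-251MG and 109, 103, 92.1 and 107 CPM for U-2 OS. PSMD12 was lowest in U-2 OS and highest in U-251MG without overlap (0.95 ± 0.07 in U-251MG against U-2 OS).

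PSMD8 was counted at 133, 136, 117 and 136 CPM in the A-431 libraries, against 125, 129, 131 and 126 CPM for U-251MG and 108, 99.9, 106 and 95.3 CPM for U-2 OS. PSMD8 was lower in U-2 OS than in the other lines, which overlapped. PSMD14, the deubiquitinase that strips ubiquitin chains from substrates, was the steadiest lid subunit, at 147 ± 5.74 CPM in U-2 OS, 158 ± 9.62 for A-431 and 174 ± 13.04 for U-251MG, and was called in no pair of lines in total RNA. PSMD3, PSMD7 and PSMD11, structural subunits of the lid, had highest-to-lowest folds of 1.27, 1.25 and 1.54 between line means.

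The 3 chaperones of base assembly were all higher in A-431 than in U-2 OS. PSMD10 was counted at 99.6, 98.4, 101 and 97.9 CPM in the A-431 libraries, against 54.3, 60.2, 56.4 and 62.1 CPM for U-251MG and 30.6, 30.7, 30.8 and 32.04 CPM for U-2 OS. PSMD10, also known as gankyrin and encoded on chrX, was separate in all 3 lines, and its fold between A-431 and U-2 OS, 3.20 by line means, was second only to that of PSMB9, 5.38, among the 40 subunits in total RNA. Its log2 ratio was 1.63 ± 0.06 (adjusted p = 5.30e-18) against U-2 OS and 0.77 ± 0.06 against U-251MG. PSMD5 and PSMD9 were at 85.7 ± 2.27 and 31.1 ± 2.58 CPM in A-431 against 55.3 ± 1.25 and 21.9 ± 1.41 in U-2 OS.

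The libraries labelled cytoplasmic gave like counts. Of the 40 subunits, 29 differed between A-431 and U-2 OS (72.5%, against 65.2% of the 19344 genes tested), 26 between A-431 and U-251MG (65%, against 60.0%) and 27 between U-251MG and U-2 OS (67.5%, against 61.9%). At least 2-fold were 5, 4 and 1 of them, against 39.0%, 32.0% and 35.0% of genes. The log2 ratio of A-431 against U-2 OS was 1.56 ± 0.06 for PSMD10, 1.29 ± 0.06 for PSMD13, 0.92 ± 0.06 for PSMA6, -0.83 ± 0.06 for PSMC3 and -0.78 ± 0.06 for PSMC5. In U-251MG against U-2 OS it was 1.21 ± 0.07 for PSMB6, 0.99 ± 0.07 for PSMD2, 0.94 ± 0.06 for PSMB2 and -0.76 ± 0.06 for PSME4. The A-431 libraries were all run on a second flow cell and those of the other lines on both. Among the libraries of that flow cell alone, with 2 each of U-2 OS and U-251MG, 26, 26 and 23 of 40 subunits were called, against 63.02%, 55.7% and 55.3% of genes, in a fit added after the data were seen. With library 13 included, 29 and 29 were called in A-431 and in U-251MG against U-2 OS.

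Genes that assemble, assist or regulate the proteasome were followed as a list of 39, of which 37 passed the filter on low counts, while PSMA8 and PSMB11, the subunits of testis and thymus, did not. In total RNA 20 of the 37 were higher and 5 lower in A-431 than in U-2 OS, 15 higher and 6 lower than in U-251MG, and 19 higher and 10 lower in U-251MG than in U-2 OS, against the shares of genes given above. The assembly chaperones PSMG1 and PSMG2, which act as one dimer in building the alpha ring, differed in opposite directions. PSMG1 was at 15.8 ± 0.597 CPM in U-2 OS and 79.4 ± 2.60 in A-431 (log2 ratio 2.28 ± 0.07), and PSMG2 was at 117 ± 4.35 and 39.96 ± 2.37 (-1.59 ± 0.07). UCHL5, a deubiquitinase of the base, was at 132 ± 3.76 CPM in A-431, against 92.9 ± 5.90 for U-251MG and 17.4 ± 0.832 for U-2 OS, and its log2 ratio of 2.87 ± 0.07 in A-431 against U-2 OS exceeded that of every subunit. ADRM1, the receptor that anchors UCHL5, was lower in A-431 (-0.62 ± 0.08).

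TAP1, TAP2, TAPBP, IRF1 and NLRC5, genes of antigen processing and its regulation in this list, were lowest in U-2 OS by mean level, as the inducible subunits were. TAP1 and TAP2, the peptide transporter, were at 20.9 ± 2.44 and 18.5 ± 1.37 CPM for U-2 OS, 35.2 ± 3.09 and 73.5 ± 4.11 for U-251MG and 47.04 ± 4.84 and 89.1 ± 3.35 for A-431. The regulators IRF1 and NLRC5 had log2 ratios of 1.93 ± 0.15 and 1.34 ± 0.10 in A-431 against U-2 OS. NFE2L1, the transcription factor that drives subunit genes when the proteasome is inhibited, was highest in U-251MG, at 496 ± 97.5 CPM against 315 ± 17.5 in U-2 OS and 253 ± 11.4 in A-431.

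Between total and cytoplasmic RNA few subunits differed at the threshold used in the main fits, run without pairing, a share near or below that of all genes. At looser thresholds the share lay above that of all genes, but near or below that of genes of like level. At an adjusted p under 0.001, 3 of 40 subunits differed in U-2 OS (7.5%, against 8.36% of genes), 4 of 40 in U-251MG (10%, against 12.9%) and 3 of 40 in A-431 (7.5%, against 19.7%). At an adjusted p under 0.05 there were 18 of 40 (45%, against 28.6% of genes), 24 of 40 (60%, against 48.8%) and 23 of 40 (57.5%, against 50.6%). Among those whose mean log2 CPM was 5 or more the share was taken at an unadjusted p under 0.05. It was 55.9% of subunits against 56.9% of genes in U-2 OS and 68.6% against 68.0% in U-251MG. In A-431 it was 59.5% against 70.0%. No difference between subunits and other genes was tested. With library 13 included 3 of 40 were called in U-2 OS. With the study's replicate numbers as a block, in a fit added after the data were seen, more subunits were called in U-2 OS, a share above that of all genes. The counts of that fit are given at the end. Without 1 library in turn edgeR called 3 to 9, 1 to 4 and 0 to 5 of 40, with 0 without A-431 library 22, where 23 had an unadjusted p under 0.05 (57.5%, against 53.6% of genes). The median log2 ratio of total over cytoplasmic RNA was 0.01 over the subunits for U-2 OS, -0.04 for U-251MG and 0.01 for A-431, and -0.00, 0.00 and -0.01 over all genes tested. The whole range of the 40 subunits was -0.46 to 0.35 for U-2 OS, -0.80 to 0.46 for U-251MG and -0.49 to 0.38 for A-431. In A-431 all total RNA was run on one flow cell and all cytoplasmic RNA on another, so fraction and flow cell cannot be told apart there.

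PSMB6 was the subunit called in all 3 lines, lower in total RNA in each. In U-2 OS it was at 36.2, 33.9, 40.2 and 34.6 CPM in total RNA and 51.4, 48.6 and 48.4 in cytoplasmic RNA, in U-251MG at 78.5, 93.4, 80.7 and 90.3 and 105, 129, 109 and 116, and in A-431 at 76, 76.1, 63.5 and 71.4 and 92.04, 92.2, 85.01 and 89.7. The fractions did not overlap in any line, and the log2 ratios were -0.43 ± 0.06 (adjusted p = 4.19e-06), -0.43 ± 0.08 (adjusted p = 8.10e-04) and -0.32 ± 0.06 (adjusted p = 4.84e-04). With an offset for the GC content of the transcript, a correction added after the data were seen, they were -0.32, -0.17 and -0.14, and the call was kept in U-2 OS and lost in the other lines (adjusted p = 0.138 and 0.0348). Leaving out 1 library lost the call in 7 of 8 fits in U-251MG and in 5 of 8 in A-431, and in none of 7 in U-2 OS.

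PSMC6, an ATPase of the base, was called in U-2 OS and A-431 as higher in total RNA. It was at 58.4, 67.3, 62.2 and 61 CPM in total and 50.2, 48.4 and 49.8 in cytoplasmic RNA of U-2 OS, and at 56.1, 53.3, 60.4 and 54.2 and 45.2, 42.8, 46.7 and 38.2 in A-431, without overlap in either line. Its log2 ratio was 0.35 ± 0.06 in U-2 OS (adjusted p = 3.29e-05), 0.38 ± 0.07 in A-431 (adjusted p = 3.36e-04) and 0.46 ± 0.09 in U-251MG, where it was not called (adjusted p = 0.00113). With the GC offset it was 0.13 in U-2 OS and 0.08 in A-431, called in neither, and without 1 library the call was lost in 2 of 8 fits in A-431.

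The other called subunits were each called in 1 line. PSMB1 in U-2 OS was at 117, 117, 134 and 120.0 CPM in total and 153, 157 and 152 in cytoplasmic RNA, lower in total RNA with a log2 ratio of -0.32 ± 0.05 without overlap. In one model over all 6 groups the U-2 OS calls of PSMB1 and PSMC6 were lost (adjusted p = 0.00245 and 0.00588). In U-251MG PSMB10 was at 8.62, 9.94, 9.15 and 7.91 in total and 15.3, 16.6, 14.3 and 15.3 in cytoplasmic RNA, also without overlap, with the largest ratio of any subunit in any line (-0.80 ± 0.10, adjusted p = 1.21e-04). With the GC offset it was -0.29 and not called (adjusted p = 0.0240). Its ratio without the offset was -0.46 ± 0.12 in U-2 OS and -0.49 ± 0.13 in A-431, where it did not pass. PSMD8 in U-251MG was at 125, 129, 131 and 126 in total and 157, 181, 154 and 164 in cytoplasmic RNA (-0.37 ± 0.06). With the GC offset its ratio was -0.02 (adjusted p = 0.842), and leaving out 1 library lost the call in 7 of 8 fits.

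PSMD12 in U-251MG was higher in total RNA, at 193, 196, 198 and 232 CPM against 145, 138, 168 and 155 (0.43 ± 0.08), and PSME4 in A-431, at 215, 216, 203 and 226 CPM against 182, 184, 183 and 159 (0.28 ± 0.06). Neither gene's fractions overlapped in these lines. With the GC offset the ratios were 0.06 for PSMD12 (adjusted p = 0.383) and 0.11 for PSME4 (adjusted p = 0.0905), and leaving out 1 library lost the calls in 7 of 8 and 5 of 8 fits. PSME1 and PSME2 were called in no line, with log2 ratios of -0.09 ± 0.05, -0.22 ± 0.10 and -0.16 ± 0.06 for PSME1 and -0.06 ± 0.08, -0.21 ± 0.08 and -0.07 ± 0.07 for PSME2, in the order U-2 OS, then U-251MG, then A-431. On the flow cell shared by both fractions, edgeR called 0 of 40 subunits for U-251MG (against 0.315% of genes), where 19 had an unadjusted p under 0.05 (47.5%, against 41.99% of genes). For U-2 OS that flow cell held only 1 cytoplasmic library, so the 1 subunit called there (against 0.664% of genes) rests on the assumption that it varies like the 4 total ones.

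**Figure D4:**
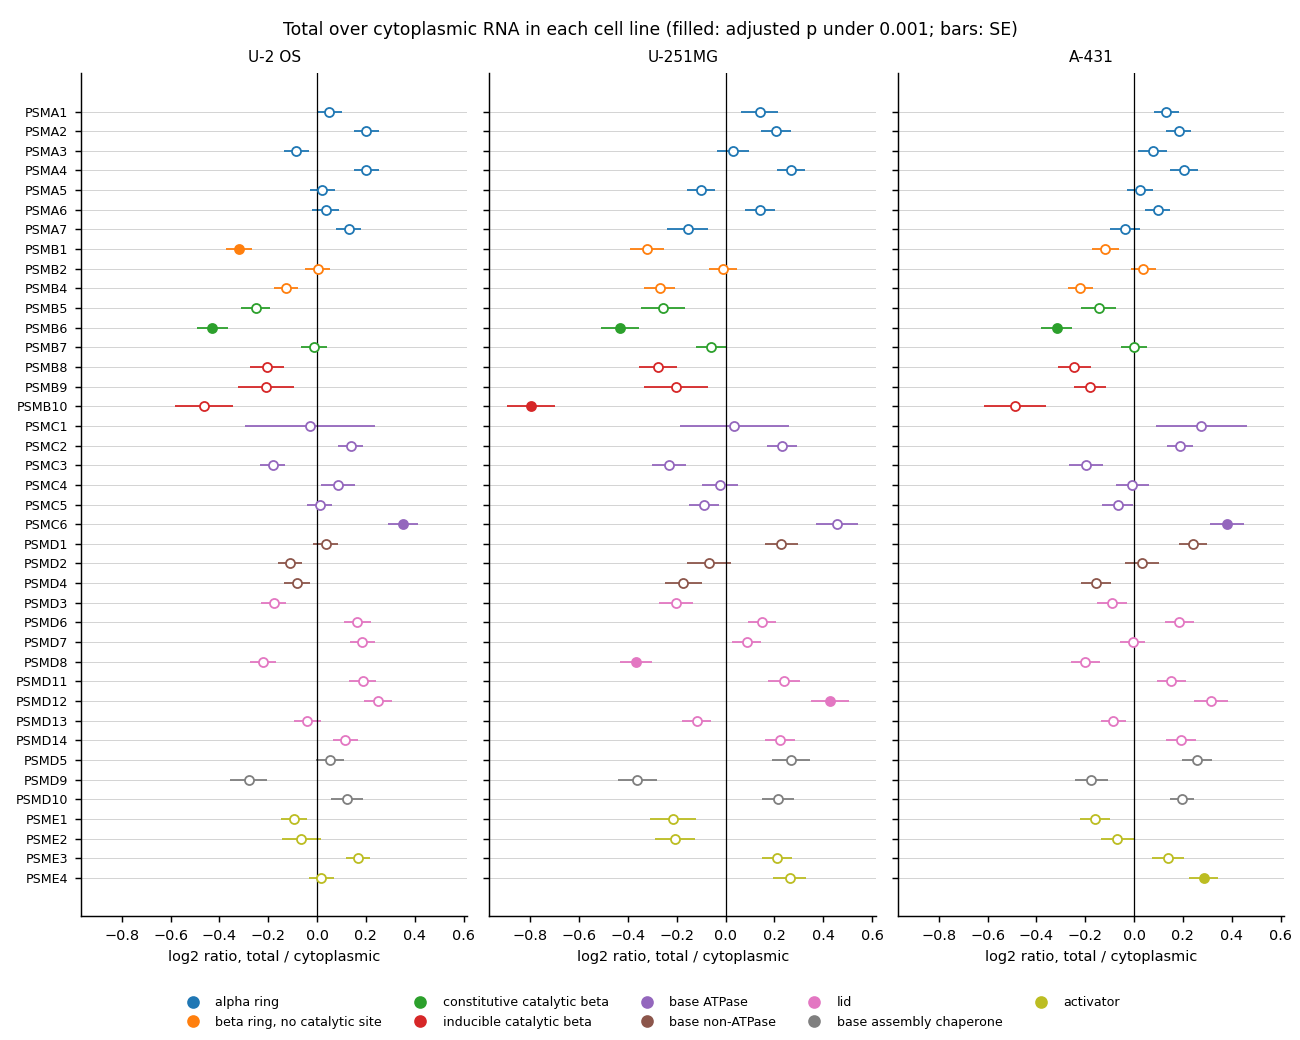
Log2 ratio of total over cytoplasmic RNA for each of the 40 subunits in the 3 cell lines, coloured by class, with SE bars and filled points where the adjusted p is under 0.001. PSMB6 is filled in all 3 panels, and the inducible and constitutive catalytic subunits lie at or left of 0.

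The direction of the ratios followed the classes in part. All 6 catalytic subunits had a ratio below 0 in each line, from -0.00 for PSMB7 in A-431 to -0.80 for PSMB10 in U-251MG. Of the 40 subunits, 15 were above 0 in all 3 lines, 16 below 0 in all 3 and 9 mixed. These signs were not tallied over all genes, so whether the subunits differ from other genes in this was not tested. Those above 0 in all 3 included PSMA1, PSMA2, PSMA4 and PSMA6 of the alpha ring, PSMC2 and PSMC6 of the base and PSMD6, PSMD11, PSMD12 and PSMD14 of the lid. Those below 0 included PSMB1 and PSMB4 of the beta ring, PSMC3 of the base and PSMD3, PSMD8 and PSMD13 of the lid.

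The ratios ran with the GC content of the reference transcript, which was 36.4% for PSMC6 and 61.7% for PSMB10 at the ends of the 40 subunits. Across the 40 subunits the Spearman correlation between GC content and ratio was -0.73 for U-2 OS, -0.81 for U-251MG and -0.83 for A-431, and across all genes tested with a reference transcript it was -0.57, -0.75 and -0.69. The ratios also ran with the length of the reference transcript, with Spearman correlations of 0.48, 0.62 and 0.63 across the 40 subunits in the same order of lines. The correlation with length was not computed over all genes, and the parts of length and GC content were not separated. These are descriptions across genes that share the same libraries. With the GC offset 3 of 40 subunits were called for U-2 OS (against 3.15% of genes), 1 for U-251MG (against 0.710%) and 0 for A-431 (against 7.58%) by edgeR, where 11 had an unadjusted p under 0.05 (27.5%, against 39.1% of genes), and the part of GC content in the ratios was not tested further.

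**Figure D5:**
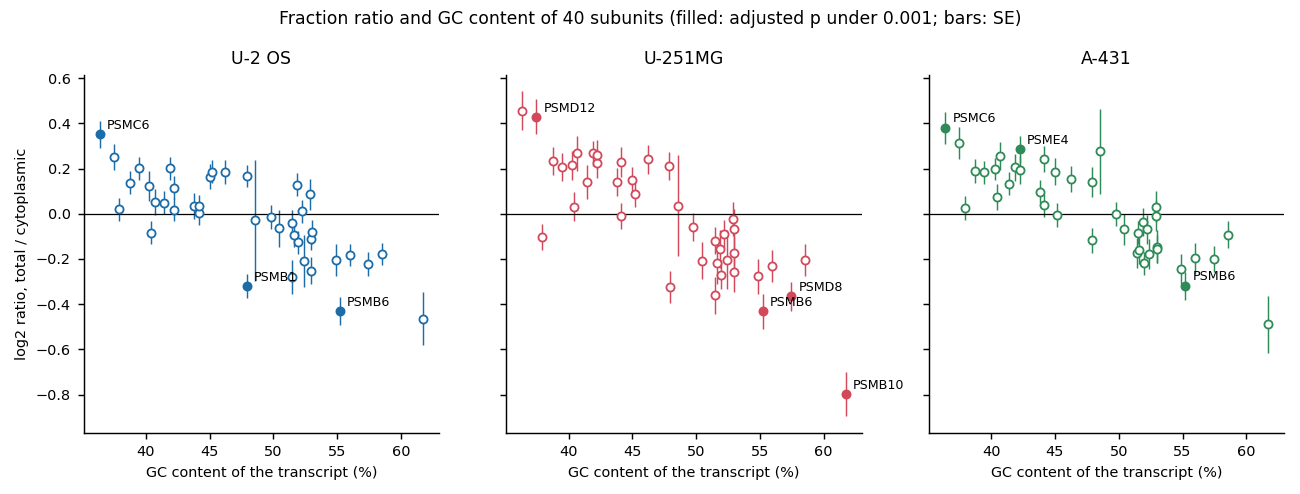
Log2 ratio of total over cytoplasmic RNA against the GC content of the reference transcript for the 40 subunits in each cell line, with SE bars, filled and named where the adjusted p is under 0.001. The called subunits higher in total RNA lie at 42.2% or below and PSMB6, PSMB10 and PSMD8 at 55.2% or above.

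The fraction ratio of a subunit was not shown by edgeR to differ between lines. In the interaction test over all 6 groups, edgeR called 0 of 40 subunits at an adjusted p under 0.05 in A-431 against U-2 OS (against 2.12% of 19948 genes), in A-431 against U-251MG (against 0.160%) and in U-251MG against U-2 OS (against 1.67%). At an unadjusted p under 0.05 there were 3, 0 and 4 of 40, against 14.6%, 7.66% and 19.3% of genes. DESeq2 called PSME4 in A-431 against U-2 OS (difference of log2 ratios 0.28 ± 0.09, adjusted p = 0.0367) and in U-251MG against U-2 OS (0.28 ± 0.09, adjusted p = 0.0317), and no subunit in A-431 against U-251MG.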

How the data were processed

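Poly(A) RNA from 3 cell lines was sequenced as 24 libraries. The authors deposited counts of reads per Ensembl gene (GRCh37), made with TopHat 1.1.4 and HTSeq 0.4.6 per the labels, and RPKM values. The 6 entries per file that name no gene were left out. Counts were tested with edgeR 4.0.16 (TMM, filterByExpr, robust quasi-likelihood F-test, R 4.3.3) within each cell line or fraction, with Benjamini-Hochberg adjustment over all genes tested and calls at an adjusted p under 0.001, or 0.05 for interactions. DESeq2 1.42.0 was an alternative. The deposited RPKM were planned for levels between genes and were replaced by CPM per kb of the Ensembl canonical transcript, since they did not scale with it. The pipeline was tested on simulated data. Subunits named with tests were, per comparison, the called ones with the largest ratios (up to 5 each way between fractions, 4 between lines) and the catalytic, inducible and PA28 subunits. The others were chosen after their values were seen. A single gene of the wider list enters its counts, and its own values are not reported here. Members and lists were chosen with earlier results of these data known. The libraries of a group are biological replicates by the study's methods.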

Additional observations from a re-analysis of the deposited data

Results flagged for a closer look

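Among the 26 subunits whose values are given by library, 1 library lay far from the other 3 of its group, by the gap to its neighbour over the whole range, in 11 of 130 pairs of subunit and group. Chance gives about 1 in 20 groups. Library 24 of A-431 cytoplasmic RNA accounted for 4 of them. These were PSMB10 in library 24 of A-431 cytoplasmic RNA, at 24.7 CPM against 14.99 to 16.4 in the other 3, PSMB8 in library 24 of A-431 cytoplasmic RNA, at 85.01 CPM against 67.9 to 70.2 in the other 3, PSME1 in library 24 of A-431 cytoplasmic RNA, at 93 CPM against 76.2 to 78.5 in the other 3 and PSME4 in library 24 of A-431 cytoplasmic RNA, at 159 CPM against 182 to 184 in the other 3. The others were PSMA4 in library 10 of A-431 total RNA, at 168 CPM against 177 to 178 in the other 3, PSMB1 in library 11 of A-431 total RNA, at 118 CPM against 132 to 135 in the other 3, PSMD10 in library 4 of U-2 OS total RNA, at 32.04 CPM against 30.6 to 30.8 in the other 3, PSMD12 in library 8 of U-251MG total RNA, at 232 CPM against 193 to 198 in the other 3, PSME1 in library 10 of A-431 total RNA, at 68.4 CPM against 73.2 to 74.2 in the other 3, PSME4 in library 1 of U-2 OS total RNA, at 277 CPM against 247 to 248 in the other 3 and PSME4 in library 8 of U-251MG total RNA, at 203 CPM against 173 to 178 in the other 3. The part of library quality or flow cell in these values was not tested.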

How the results depend on the processing

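The counts of subunits called between cell lines stayed within 1.5 times of those given under every alternative run, and without each library in turn they ran from 26 to 27 in A-431 against U-2 OS, total RNA, from 23 to 30 in U-251MG against U-2 OS, total RNA, from 23 to 27 in A-431 against U-251MG, total RNA, from 25 to 27 in A-431 against U-2 OS, cytoplasmic RNA, from 24 to 28 in U-251MG against U-2 OS, cytoplasmic RNA and from 23 to 28 in A-431 against U-251MG, cytoplasmic RNA. For single named subunits between lines, 417 values under other settings kept their call and 2 lost it, PSME2 in A-431 against U-2 OS (-0.33, adjusted p = 0.00155) and PSMB10 in U-251MG against U-2 OS (0.92, adjusted p = 0.00119) on the second flow cell alone by edgeR. Leaving out 1 library kept 540 and lost 13, all of PSMB10, PSME1 or PSME2. In total RNA PSMB10 lost its call in 4 of 8 fits in A-431 against U-251MG and in 3 of 8 in U-251MG against U-2 OS. PSME1 in A-431 against U-251MG and PSME2 in A-431 against U-2 OS each lost it in 2 of 8 fits in total RNA and in 1 in cytoplasmic RNA. Between fractions 63 kept and 17 lost their call, and with 1 library left out 44 and 33. No direction reversed. The cause of these changes was not tested.

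The counts between fractions moved more, and the percentage in brackets is the share of all genes called in the same fit. In U-2 OS 3 of 40 became 7 (7.30%) without a filter on low counts, 18 (28.6%) at an adjusted p under 0.05, 1 (0.952%) in one model over all 6 groups, 1 (0.664%) on the first flow cell, where cytoplasmic RNA had 1 library, and 3 to 9 without 1 library (9 without library 3, 6 without library 16). In U-251MG 4 became 10 (26.3%) with DESeq2, 24 (48.8%) at an adjusted p under 0.05, 14 (24.8%) in one model, 0 (0.315%) on the first flow cell by edgeR, where 19 had an unadjusted p under 0.05 (41.99% of genes), 1 (0.710%) with the GC offset, and 1 to 4 without 1 library, where leaving out any but library 19 gave 1 or 2. In A-431 3 became 9 (27.4%) with DESeq2, 7 (17.4%) without the filter, 23 (50.6%) at an adjusted p under 0.05, 0 (7.58%) with the GC offset by edgeR, where 11 had an unadjusted p under 0.05 (39.1% of genes), and 0 to 5 without 1 library, with 0 without library 22 (unadjusted p under 0.05 in 23 and in 53.6% of genes), 1 without library 9, 12, 21 or 23 and 5 without library 10. In the interaction tests the count of 0 became 1 with DESeq2 in A-431 against U-2 OS and 1 in U-251MG against U-2 OS.

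Levels per length depend on the length. The median over the subunits, for U-2 OS, then U-251MG, then A-431 total RNA and in that order for cytoplasmic RNA, was 754, 1011, 763, 799.6, 896 and 815 as deposited RPKM and 24.1, 31.8, 31.5, 24.99, 28.7 and 30.7 CPM per kb of union exons. In that order the share of PSMB8 was 37.4, 45.8, 65.1, 32.1, 43.4 and 63.1% by RPKM and 16.2, 23.1, 41.5, 15.7, 23.2 and 43.1% by union exons, and that of PSMB9 16.9, 9.67, 32.5, 14.6, 9.39 and 31.3% and 6.62, 4.53, 16.2, 5.72, 3.86 and 14.9%. The share of PSMB10 moved beyond its SD to 8.12% for U-2 OS total RNA, 11.5% for U-2 OS and 9.50% for U-251MG cytoplasmic RNA by RPKM, and to 11.2% for A-431 total RNA and 9.23% for U-251MG cytoplasmic RNA by union exons. The labels share no replicate number between groups, but the study numbers its replicates within each line, and read totals tied them to the libraries. The correlations of same-numbered fractions, in their deviations from the group means, ran from 0.05 to 0.14 for U-2 OS. They ran from -0.38 to 0.30 for U-251MG and from 0.02 to 0.21 for A-431. Of 11 cytoplasmic libraries 6 correlated best with their own number, among them every U-2 OS library tested. Whether 6 is more than unpaired numbers would give was not tested, so this check does not decide whether the numbers pair the samples. The main tests were run without pairing, and no source used here says that a number marks a shared culture. With that number as a replicate block, added after the data were seen, 15 (18.8%), 3 (9.81%) and 5 (26.2%) of 40 subunits, in the same order of lines, were called between fractions, and 0 in each interaction test by edgeR (3, 2 and 5 of 40 at an unadjusted p under 0.05). PSMC1, with 19 to 52 reads per library, is the subunit that depth limits most.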
